A study of Mus musculus with 6 samples.

Results

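The genes described are those of the mitochondrial ribosomal proteins, chosen as every gene whose symbol in the platform annotation is Mrpl or Mrps followed by a number. They came to 77 of the 18535 genes that could be named, measured by 80 of 20914 named probes, with 48 Mrpl and 29 Mrps symbols. Total RNA of mouse testis, of mouse epididymis and of the stromal vascular fraction (SVF) of mouse adipose tissue was compared on 6 two-colour arrays. Every tissue gave 1 RNA sample, and for each of the 3 pairings there were 2 arrays with Cy3 and Cy5 exchanged between the tissues. Genotype, strain, age, sex, fat depot and the number of animals behind each RNA are not named in the labels, and no treatment is named for any tissue. SVF is the mixture of stromal, endothelial and immune cells left when adipocytes are removed from fat, testis is the seat of sperm formation, and epididymis is the duct in which sperm mature and are stored.

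Mitochondria keep their own ribosome, which translates only the few messages of the mitochondrial genome. These messages encode membrane subunits of the respiratory chain and ATP synthase. The RNAs of this ribosome come from the mitochondrial genome, while all of its proteins are encoded in the nucleus, made in the cytoplasm and imported. The particle has a large subunit that forms peptide bonds and passes the new chain through an exit tunnel, and a small subunit that reads the message. Part of its proteins have bacterial counterparts, and the rest are found only in mitochondria. Of the 77 genes, 50 encode proteins of the large subunit, including Mrps30 and Mrps18a despite their names, and 26 encode proteins of the small subunit. The remaining gene, Mrps36, carries a ribosomal name, but its protein is now known as a part of the 2-oxoglutarate dehydrogenase complex.

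A value is the mean of the log2 ratios on both arrays of a tissue pair, with the sign of the dye-exchanged array turned, given with its SD (n = 2 hybridisations). A gene is called higher in a tissue where both arrays showed at least 2-fold, a log2 ratio of 1, in the same direction. The labels state neither the base of the logarithm, taken as 2, nor the direction, taken as Cy5 over Cy3, so both are likely rather than known and the folds rest on them. Whether a probe was above background in a tissue is not known either. No test between tissues can be made with a single RNA from each, and the SD covers dye and hybridisation error only. The tissue labels were set against marker genes. All 12 late spermatid genes were above 0 on both arrays of testis over SVF and 11 passed the 2-fold call. The 11 measured stromal, endothelial and immune genes were all called higher in SVF than in testis. Against epididymis, 10 of these 11 were called higher in SVF. All 8 measured genes of the epididymal duct were higher in epididymis than in either other tissue. Late spermatid genes were also higher in epididymis than in SVF, in 10 of 12 cases with a median log2 ratio of 2.14. How far RNA of sperm entered the epididymal values of the ribosomal genes was not tested. In these tissue extracts, fewer cells of a type and less RNA per cell cannot be told apart.

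In testis against SVF, the mitochondrial ribosomal protein genes spread over a wide range on both sides of a median slightly in favour of testis. The median log2 ratio was 0.52, or 1.43-fold, with 0.64 and 0.36 on the single arrays, against 0.00 over all named genes. The mean ratio was above 0 for 53 of the 77 genes, or 68.8%, against 50.2% of all named genes. Higher in testis were 20 genes, or 26%, where the background over all named genes was 20.7%. Higher in SVF were 8 genes, or 10.4%, against a background of 16%. The share called higher in testis lay a little above the background, and the share called higher in SVF lay below it. At 1.5-fold on both arrays 26 genes, or 33.8%, were higher in testis against 26.7% of all named genes, and 9, or 11.7%, higher in SVF against 22.3%. The ratio was above 0 on both arrays for 47 genes, or 61% against 39.9%, and below 0 on both for 19, or 24.7% against 38.4%. Single genes ran from -2.65 to 4.04, and the middle 50% of them spanned 1.40, against 1.69 for all named genes. The arrays placed the genes in much the same order, with Pearson's r of 0.89 across the 77 genes, which are not independent replicates and share both RNAs.

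Mrpl47, the counterpart of a bacterial protein that lines the rim of the exit tunnel, had the highest testis level of all 77 relative to SVF. Its arrays gave log2 ratios of 3.81 and 4.27, a mean of 4.04 ± 0.32 or 16.5-fold. Against testis, the epididymal ratio was -2.71 on both arrays, which is 6.55-fold higher in testis. Epididymis over SVF gave 0.87 and 1.55, so only the second array passed 2-fold. Mrpl39, a mitochondria-specific protein with the fold of a threonyl-tRNA synthetase, came next with 3.05 and 2.40 over SVF, a mean of 2.72 ± 0.46 or 6.61-fold. In epididymis against testis it had -2.23 and -2.99, 6.10-fold in favour of testis. For both genes all 4 arrays that carried testis RNA ran the same way.

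Mrpl35 had 1.69 and 3.01 over SVF, a mean of 2.35 ± 0.93, so both arrays passed 2-fold but differed by more than 1 log2 unit. Its ratio in epididymis against testis was steadier, with -2.76 and -2.26, 5.70-fold in favour of testis. In the small subunit, the mitochondria-specific Mrps31 had 2.21 and 2.16 over SVF, a mean of 2.19 ± 0.03 or 4.55-fold, and -1.99 and -1.65 in epididymis against testis. The arrays of Mrps31 were nearly equal in the SVF comparison. Mrps22, a small-subunit protein whose loss causes a human mitochondrial disease, had 1.90 and 1.68 over SVF and -1.17 and -1.57 in epididymis against testis. Mrpl1, the counterpart of the bacterial protein at the stalk where spent tRNA leaves, had 1.58 and 2.21 over SVF and -1.36 and -1.03 in epididymis against testis. These 6 genes, Mrpl1, Mrpl35, Mrpl39, Mrpl47, Mrps22 and Mrps31, were those called higher in testis against each of the others. They were 7.79% of the 77, while the same class held 15.6% of all named genes.

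The other 14 genes called higher in testis than in SVF were not called in epididymis against testis. Mrps35, a mitochondria-specific protein of the small subunit, had 1.94 and 2.09 over SVF, 4.05-fold, and its ratio in epididymis against SVF was 1.06 ± 0.09. Mrpl53 had 2.60 and 1.56, and Mrpl51 had 1.95 and 1.62, both mitochondria-specific proteins of the large subunit. The remaining 11 had means from 1.06 ± 0.03 for Mrps9 to 1.64 ± 0.29 for Mrpl37, and included Mrpl11 of the factor-binding stalk (1.49 ± 0.29) and Mrpl16 near the catalytic centre (1.33 ± 0.15). Mrps28 (1.20 and 0.97) and Mrpl22 (0.99 and 0.97) lay just under 2-fold on at least 1 array.

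**Figure D1:**
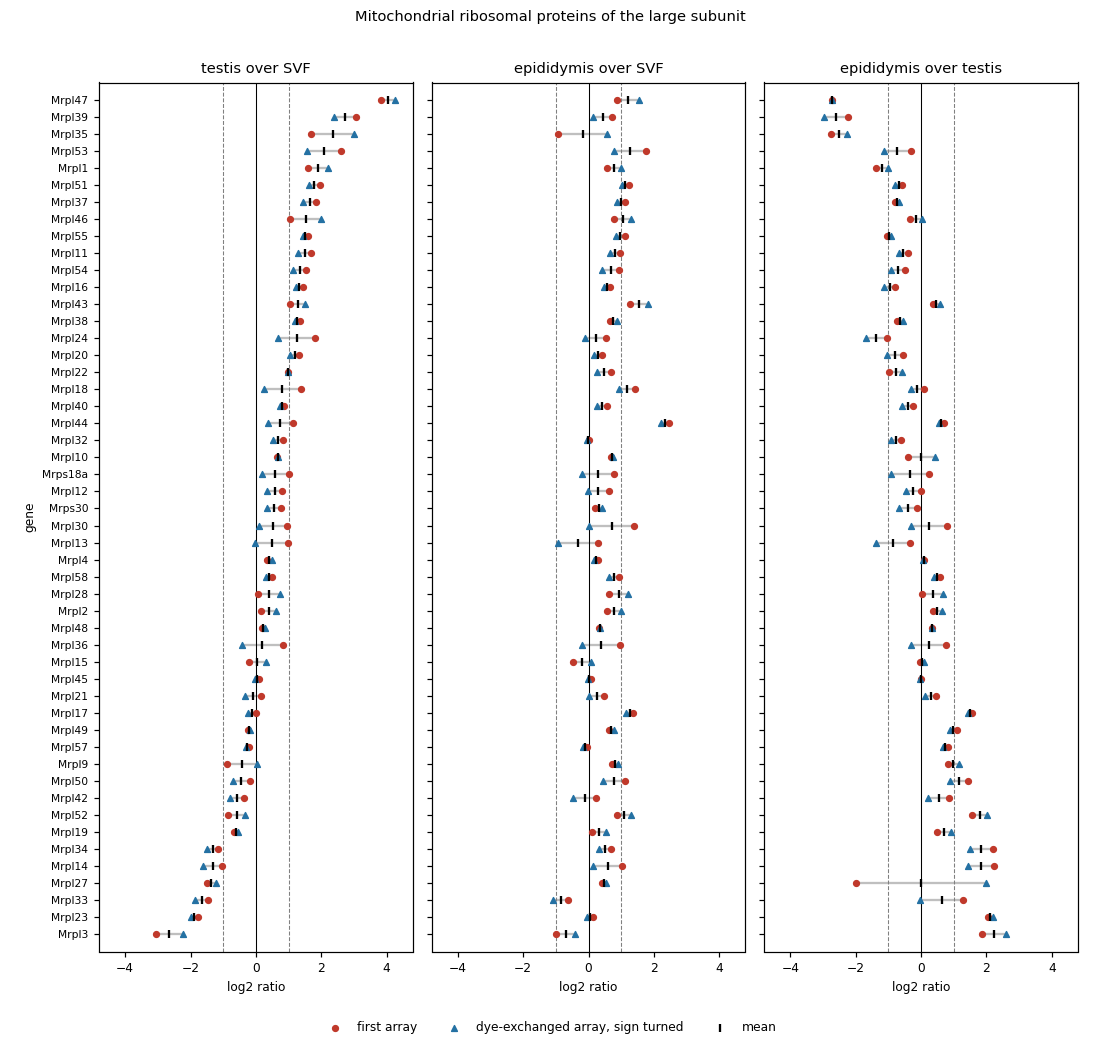
Log2 ratios of the 50 large-subunit genes (rows, ordered by testis over SVF) in the 3 tissue comparisons (panels), with a circle for the first array, a triangle for the dye-exchanged array with its sign turned, a tick for the mean and dashed lines at 2-fold. Ratios ran from -2.65 for Mrpl3 to 4.04 for Mrpl47 in testis over SVF, most points in epididymis over SVF lay between 0 and the dashed line, and Mrpl27 in epididymis over testis had its arrays on opposite sides.

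Mrpl3 stood at the opposite end. It is the counterpart of a bacterial protein that reaches towards the peptidyl transferase centre. Its ratio of testis over SVF was -3.07 and -2.24, a mean of -2.65 ± 0.59 or 6.28-fold higher in SVF. In epididymis against testis it had 1.87 and 2.59, 4.70-fold higher in epididymis. Epididymis over SVF gave -0.99 and -0.41, the second lowest mean of the 77 genes, so the order of its levels was SVF, epididymis, testis, with SVF and epididymis less than 2-fold apart. Mrpl23, the counterpart of the bacterial protein at the tunnel exit to which factors for new chains bind, had -1.78 and -2.00 in testis against SVF and 2.04 and 2.19 in epididymis against testis. SVF and epididymis were close for Mrpl23, with 0.14 and -0.06, so testis alone was low.

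The same pattern of low testis against both other tissues was called for Mrpl14, Mrpl34 and the small-subunit gene Mrps21. Mrpl14, whose protein faces the small subunit, had -1.04 and -1.61 in testis against SVF and 2.23 and 1.44 in epididymis against testis. Mrps21 had -1.38 and -1.83, then 1.67 and 1.13. Mrpl34 had means of -1.32 ± 0.23 and 1.84 ± 0.50. The 5 genes with this pattern were 6.49% of the 77, against 7.97% of all named genes. Mrps24, the counterpart of a bacterial protein at the message entrance, was called higher in SVF than in testis (-1.19 and -1.03) and missed the call in epididymis against testis by a little (0.97 and 1.19). Mrps7, a head protein near the path of the message, was the reverse case, with -0.99 and -1.23 in testis against SVF and a called 1.34 and 1.23 in epididymis against testis.

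Some genes had arrays or probes that disagreed. Mrpl27, whose bacterial counterpart extends into the catalytic centre, was called higher in SVF than in testis (-1.50 and -1.22). In epididymis against testis its arrays gave -1.99 and 1.99, opposite signs and the largest disagreement of the 77. Its ratios also failed to close the loop of tissues: the sum of the ratios around the loop, which is 0 without error, was -1.84. The sum was at most 0.5 in size for 74 of the 77 genes and for 14041 of the 18535 named genes, and the other exceptions were Mrpl44 (-0.97) and Mrpl57 (0.59). Mrpl33 rests on 2 probes, which gave -0.84 and -2.48 in testis against SVF, so that only 1 of them passed 2-fold on both arrays. The 2 probes of Mrpl15 gave 0.20 and -0.10 in the same comparison, and those of Mrps5 gave -0.08 and 0.41.

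The stretches ahead of the genes at the ends of this range are given because they move in opposite ways between testis and SVF. Each is the 200 bases before the annotated start of transcription in RefSeq on GRCm38.p6, written 5′ to 3′ on the gene's own strand. Mrpl47 lies on the minus strand (chr3:32736756-32736955), as does Mrpl39 (chr16:84735245-84735444), and Mrpl3 (chr9:105053068-105053267) and Mrpl23 (chr7:142532832-142533031) lie on the plus strand. Capitals mark matches to motifs of factors known to act on nuclear genes for mitochondrial proteins: CCGGAAG for the ETS family, which includes GABPA (NRF2), TGCGCA as the core of the NRF1 site, the palindromic full NRF1 site, whose letters are the capitals in the Mrpl39 line, and AAGATGGC for YY1. The motifs were searched on both strands.
Mrpl47: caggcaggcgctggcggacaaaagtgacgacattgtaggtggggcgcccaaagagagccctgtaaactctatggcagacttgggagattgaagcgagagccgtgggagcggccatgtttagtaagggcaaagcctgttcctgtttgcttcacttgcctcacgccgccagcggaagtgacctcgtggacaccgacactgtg
Mrpl39: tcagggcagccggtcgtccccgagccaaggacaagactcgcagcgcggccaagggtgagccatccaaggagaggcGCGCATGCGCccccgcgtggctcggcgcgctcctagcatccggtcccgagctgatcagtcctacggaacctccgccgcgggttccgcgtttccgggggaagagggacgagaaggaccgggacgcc
Mrpl3: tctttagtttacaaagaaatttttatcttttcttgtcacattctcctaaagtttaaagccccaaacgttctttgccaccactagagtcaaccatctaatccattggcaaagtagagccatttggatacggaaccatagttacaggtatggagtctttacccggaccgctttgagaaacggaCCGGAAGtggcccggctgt
Mrpl23: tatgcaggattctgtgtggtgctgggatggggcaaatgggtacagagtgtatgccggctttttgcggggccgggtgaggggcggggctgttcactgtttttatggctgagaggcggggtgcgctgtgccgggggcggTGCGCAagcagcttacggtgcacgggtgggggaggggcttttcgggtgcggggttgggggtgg
The stretch of Mrpl47 held no exact match to these letters. Near matches were not sought, so a stretch without capitals is not shown to lack a site. That of Mrpl39 held the full NRF1 site, beginning 125 bases before the start. That of Mrpl3 held the ETS letters 19 bases before the start, and that of Mrpl23 held the NRF1 core. A match is a run of letters and not a shown binding site.

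Over all 68 of the 77 genes with an entry in the RefSeq promoter table, in windows from 250 bases before to 50 after the start, 25 held the ETS letters, or 36.8%, against 13.1% of the 14738 named genes with an entry. The NRF1 core was in 21 windows (30.9% against 11%) and the full NRF1 site in 3 (4.41% against 1.49%). The full site contains the core only where a fitting base adjoins it. The YY1 letters were in 12 (17.6% against 3.58%), among them Mrpl35, Mrps12 and Mrps7. TATAAA was in 4 windows (5.88% against 11.7%), CACGTG, an E-box, in 5 (7.35% against 8.73%), and TGACGTCA, a cyclic AMP response element, in 2 (2.94% against 2.58%). Of the genes called higher in testis than in SVF, 17 had a window and 5 of these held the ETS letters. Of the 8 called higher in SVF, 5 held them: Mrpl27, Mrpl3, Mrpl33, Mrpl34 and Mrps21. With so few genes on each side these are counts only. The ETS letters were found on both sides of the range, in Mrpl51, Mrpl53 and Mrps22 among genes higher in testis.

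By place in the ribosome, genes of neighbouring proteins included calls in both directions in testis against SVF. Around the exit tunnel, Mrpl47 stood at 4.04 ± 0.32, Mrpl39 at 2.72 ± 0.46, Mrpl24 at 1.24 ± 0.82 and Mrpl22 at 0.98 ± 0.02. Mrpl44 was at 0.75 ± 0.55, Mrpl32 at 0.67 ± 0.23, Mrpl17 at -0.11 ± 0.17 and Mrpl23 at -1.89 ± 0.15. Mrpl45, which ties the ribosome to the inner membrane next to the exit, was at 0.04 ± 0.10. Of these 9 tunnel genes 7 had a mean above 0, and their median was 0.75. At the catalytic centre and upper tunnel, Mrpl16 was at 1.33 ± 0.15, Mrpl4 at 0.41 ± 0.12, Mrpl2 at 0.40 ± 0.32, Mrpl27 at -1.36 ± 0.19 and Mrpl3 at -2.65 ± 0.59. Mrpl24 and Mrpl22, Mrpl44 and Mrpl32, and Mrpl2 and Mrpl4 lay no farther apart than the SD of Mrpl24, of Mrpl44 and of Mrpl2 between arrays. These SDs cover hybridisation error only.

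The stalk that recruits translation factors was represented by 3 genes. Mrpl10, Mrpl11 and Mrpl12 had 0.66 ± 0.04, 1.49 ± 0.29 and 0.57 ± 0.32 in testis against SVF, and all 6 array values were above 0, with Mrpl11 alone called. Along the path of the message in the small subunit, Mrps12 of the decoding site was at 0.73 ± 0.21, Mrps11 at 1.10 ± 0.77, Mrps5 at 0.17 ± 0.81, Mrps7 at -1.11 ± 0.17 and Mrps24 at -1.11 ± 0.11. Mrps11 and Mrps5 each had arrays that differed by over 1 log2 unit. The paralogues Mrps18a, Mrps18b and Mrps18c, related to a single bacterial protein, are split between the lists below, where Mrps18a is counted with the mitochondria-specific genes of the large subunit. They had 0.59 ± 0.59, 1.58 ± 0.38 and 0.54 ± 0.01, with Mrps18b alone called. Mrpl58, a hydrolase that frees stalled chains and is built into the large subunit, had 0.41 ± 0.13.

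The subunits as a whole were alike in their medians. In testis against SVF the large subunit had 0.53 and the small 0.49, with 15 and 5 genes called higher in testis and 6 and 2 called higher in SVF. Over all named genes, 20.7% were called higher in testis and 16% higher in SVF. In the large subunit, 30 genes with bacterial counterparts had a median of 0.45, with 7 (23.3%) called higher in testis and 6 (20%) higher in SVF. The 19 measured of 20 mitochondria-specific genes had 0.75, with 8 (42.1%) higher in testis and 0 higher in SVF. Mrpl58, also of the large subunit, was in neither list and was not called (0.41 ± 0.13). In the small subunit, 17 genes with counterparts had 0.45 with 2 (11.8%) called each way, and 9 mitochondria-specific genes had 0.53 with 3 (33.3%) higher in testis and 0 higher in SVF. The lists are short, and the differences between them were not tested.

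**Figure D2:**
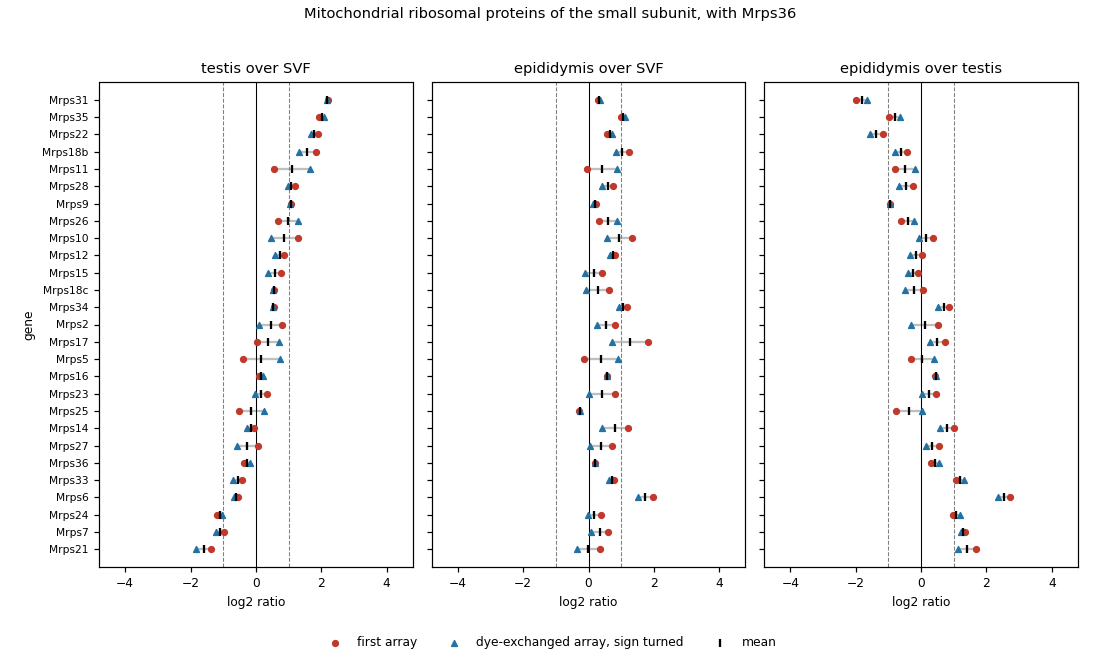
Log2 ratios of the 26 small-subunit genes and Mrps36 (rows, ordered by testis over SVF) in the 3 tissue comparisons (panels), with a circle for the first array, a triangle for the dye-exchanged array with its sign turned, a tick for the mean and dashed lines at 2-fold. Mrps31, at 2.19, and Mrps21, at -1.60, mark the ends in testis over SVF, and Mrps6 stands apart at 1.74 in epididymis over SVF and 2.54 in epididymis over testis.

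In epididymis against SVF the genes differed little, but mostly in one direction. The median log2 ratio was 0.53, or 1.45-fold, with 0.65 and 0.42 on the single arrays, against 0.07 over all named genes. The mean was above 0 for 67 of the 77 genes, or 87%, against 54% of all named genes. The ratio was above 0 on both arrays for 56 genes, or 72.7%, against a background of 38.3%, and below 0 on both for 4, or 5.19%, against 29.8%. The middle 50% of the genes spanned 0.53, about the size of the median itself and narrower than the 1.01 of all named genes. Large and small subunits again had like medians of 0.53 and 0.55.

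Few of these shifts reached 2-fold. Higher in epididymis were 5 genes, or 6.49%, against a background of 10.2%, and higher in SVF were 0 genes, against 8.68%. At 1.5-fold on both arrays the counts were 25 genes, or 32.5%, against 17.5%, and 1 gene, or 1.3%, against 13.2%. At 2-fold on the mean alone, 14 genes were higher in epididymis, so the count of 5 depends on the demand that both arrays pass. It was 12 without the first array and 17 without the second. The share of all named genes was not computed under these looser rules, so these counts have no background. The order of the genes was also less repeatable than in testis against SVF, with Pearson's r between arrays of 0.57 across the 77 genes and 0.71 across all named genes.

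Mrpl44, a large-subunit protein with the fold of a double-stranded RNA nuclease, had the largest epididymal ratio over SVF. Its arrays gave 2.46 and 2.21, a mean of 2.33 ± 0.17 or 5.04-fold. Its ratios over testis (0.62 ± 0.11) and of testis over SVF (0.75 ± 0.55) add up to less than that, which is the loop sum of -0.97 given above. Mrps6, of the platform of the small subunit, had 1.98 and 1.51 over SVF and 2.72 and 2.37 over testis, 3.35-fold and 5.83-fold. Testis and SVF were closer for Mrps6, with -0.54 and -0.68, so it was high in epididymis alone.

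Mrpl17, another protein near the tunnel exit, had the same form, with 1.37 and 1.16 over SVF, 1.55 and 1.44 over testis, and 0.00 and -0.23 in testis against SVF. Mrps6 and Mrpl17 were the only ones of the 77 called higher in epididymis on both counts, 2.6% of the 77 against 4.34% of all named genes. Mrpl43 had 1.28 and 1.81 and Mrpl51 1.23 and 1.03 in epididymis against SVF. Both were also called higher in testis than in SVF, so that SVF was the low tissue for them. No other gene of the 77 was called so, and this class was 2.6% of the 77 against 5% of all named genes. At the other end, Mrpl33 had -0.85 ± 0.32, from probes at -0.18 and -1.52, so its rank as the lowest rests on 1 probe. Next came Mrpl3 at -0.70 ± 0.41, Mrpl13 at -0.33 ± 0.86, Mrps25 at -0.27 ± 0.02 and Mrpl15 at -0.19 ± 0.40. The arrays of Mrpl13 and Mrpl15 disagreed in sign.

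Mrps6 shares its locus with another gene. In the RefSeq annotation, the sodium and inositol transporter gene Slc5a3 overlaps Mrps6 over 29138 bases. The probes named for the neighbours did not move together: Slc5a3 had 0.39 ± 0.11 for testis over SVF, 0.35 ± 0.54 for epididymis over SVF and 0.15 ± 0.13 for epididymis over testis. Which transcripts the Mrps6 probe binds was not tested, since probe sequences were not used here. Mrps18a overlaps Rsph9, a gene of the sperm and cilium axoneme, over 6871 bases, and Rsph9 had 3.67 ± 0.15 in testis against SVF where Mrps18a had 0.59 ± 0.59.

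In epididymis against testis the genes split evenly. The median log2 ratio was 0.02, with 0.05 and -0.04 on the single arrays, and the sign turned with the array. All named genes had a median of -0.00. Higher in epididymis were 10 genes, or 13%, against a background of 14.3%, and higher in testis were 7 genes, or 9.09%, against 18%. Without the first array the latter count was 11, for which no share of all named genes was computed. At 1.5-fold the shares were 19.5% against 21% and 18.2% against 23.9%. Counting any ratio above 0 on both arrays gave 41.6% against 37.9%, and below 0 on both 37.7% against 38.2%. The 10 were Mrps6, Mrpl3, Mrpl23, Mrpl14, Mrpl34, Mrpl52, Mrpl17, Mrps21, Mrps7 and Mrps33. Their means ran from 1.19 ± 0.16 for Mrps33 to 2.54 ± 0.25 for Mrps6. Mrpl52, a mitochondria-specific protein, had 1.56 and 2.03, while its ratio of testis over SVF was -0.59 ± 0.37, under the 2-fold rule. The 7 higher in testis were Mrpl47, Mrpl39, Mrpl35, Mrps31, Mrps22, Mrpl1 and Mrpl24, and Mrpl24 had -1.05 and -1.70. The comparisons share RNA samples, so a gene low in testis appears in both of them and is not counted as a separate observation.

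Least-squares levels over all 6 arrays, centred on 0 for each gene, gave the order of the tissues. SVF had the lowest level for 49 of the 77 genes, or 63.6%, against 36.4% of all named genes. It had the highest level for 7, or 9.09%, against 31.9%. Testis was highest for 35, or 45.5% against 40.2%, and lowest for 23, or 29.9% against 39.6%. Epididymis was also highest for 35, against 27.8% of all named genes, and was seldom the lowest, for 5 genes or 6.49% against 24%. For Mrpl47 the levels were -1.75 in SVF, 2.25 in testis and -0.50 in epididymis. For Mrpl3 they were 1.12, -1.63 and 0.51 in the same order. Some genes hardly differed between the tissues. Mrpl45 had 0.04 ± 0.10, 0.02 ± 0.07 and -0.02 ± 0.03 in the 3 comparisons, and no ratio of it on any array was above 0.11 in size. For Mrpl45 the order of the tissues is thus within the spread of the arrays.

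**Figure D3:**
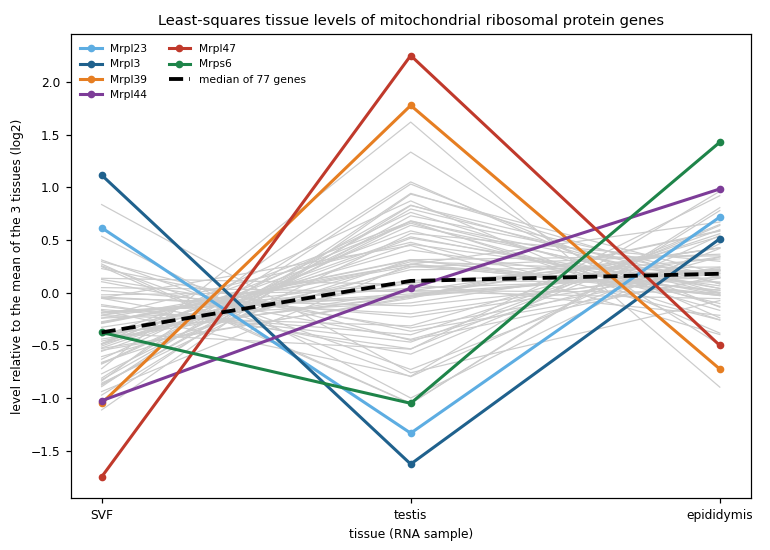
Least-squares log2 level of each of the 77 genes in SVF, testis and epididymis relative to its mean over the 3 tissues (grey lines), with 6 genes in colour and the median of all 77 as a dashed line. The median was lowest in SVF, Mrpl47 and Mrpl39 peaked in testis, Mrpl3 and Mrpl23 were lowest there, and Mrps6 and Mrpl44 were highest in epididymis. The lines join 3 separate RNA samples and no order in time.

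Counted over all comparisons, 35 of the 77 genes, or 45.5%, passed the 2-fold rule at least once, against 47.1% of all named genes. The other 42 passed it in none. Among these, Mrpl48 had 0.22 ± 0.06, 0.34 ± 0.01 and 0.34 ± 0.00 in the order testis over SVF, epididymis over SVF, epididymis over testis, and Mrps16 had 0.15 ± 0.07, 0.57 ± 0.01 and 0.45 ± 0.01. Their arrays were close to each other, so these small ratios were steady between hybridisations. Mrps36 had -0.26 ± 0.12, 0.20 ± 0.00 and 0.43 ± 0.16. Mrpl36 showed the opposite quality, with arrays of opposite sign in all 3 comparisons (0.82 and -0.44 in testis against SVF).

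Other genes of mitochondrial gene expression were set beside the ribosomal ones. As background in testis against SVF, 20.7% of all named genes were called higher in testis and 16% higher in SVF. Of 5 ribosomal proteins with other names, 4 were measured and their median in testis against SVF was 1.01. Dap3, a GTP-binding protein of the small subunit, was called higher in testis at 2.25 ± 0.35, and Ptcd3, which binds RNA at the message entrance, at 1.29 ± 0.06. Of 26 genes for assembly of the mitochondrial ribosome, 25 were measured, with 6 called higher in testis, 0 called higher in SVF and a median of 0.65. The share of 24% higher in testis is near the background. They were Tfb1m, the methyltransferase of the small ribosomal RNA (2.86 ± 0.16), the RNA helicase Dhx30 (2.38 ± 0.21), Mterf4 (2.32 ± 0.06), Fastkd2 (1.87 ± 0.03), Mterf3 (1.59 ± 0.51) and Afg3l2, the membrane protease that matures Mrpl32 (1.43 ± 0.14). In epididymis against testis the first 5 were also called higher in testis, 20% of the measured list against 18% of all named genes. Mrpl32 itself had 0.67 ± 0.23.

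Mitochondrial translation factors, 12 measured of 14 listed, had a median of 0.39 in testis against SVF, with the initiation factor Mtif3 (2.22 ± 0.38) and the release factor Mtrf1 (1.21 ± 0.08) called higher in testis, 16.7% of the list, and 0 called higher in SVF. Mitochondrial tRNA synthetases and related enzymes, 17 measured of 20, had a median of 0.41, with Fars2, Rars2 and Ears2, 17.6%, called higher in testis. Genes for expression and upkeep of mitochondrial DNA, 26 measured of 26, had a median of 0.75, with 4, or 15.4%, called higher in testis and Polg2 (-1.57 ± 0.25) and Hsd17b10 (-1.53 ± 0.02) called higher in SVF. In epididymis against SVF the medians of these lists were 0.61 for assembly, 0.55 for translation factors, 0.37 for tRNA synthetases and 0.47 for mitochondrial DNA, beside 0.53 for the ribosomal proteins. In that comparison the background called higher in epididymis was 10.2% of all named genes. Afg3l2, Ngrn and Mettl15 were called so, 12% of the assembly list, and Tefm, 3.85% of the mitochondrial DNA list. Of the translation factors and tRNA synthetases 0 were called higher in epididymis. In these lists 0 genes were called higher in SVF, against 8.68% of all named genes.

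**Figure D4:**
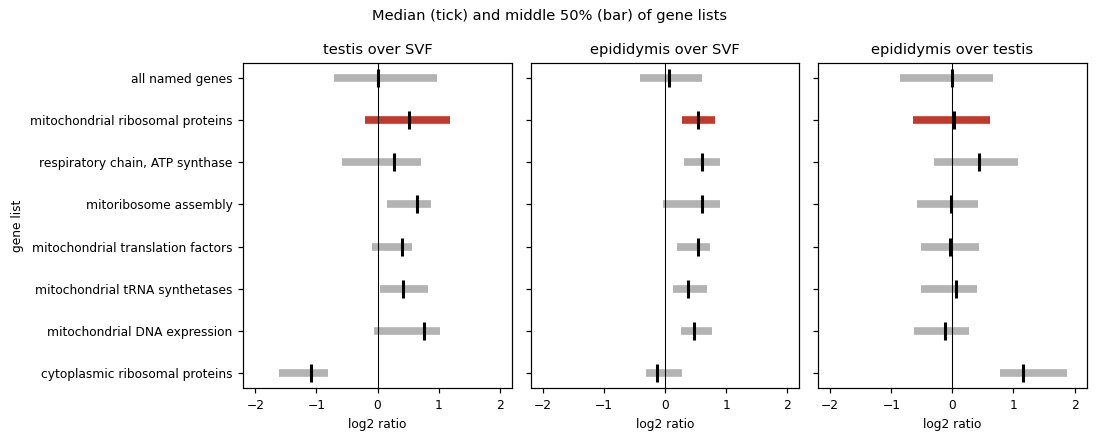
Median (tick) and middle 50% (bar) of mean log2 ratios for all named genes, the 77 mitochondrial ribosomal protein genes (red) and 6 other gene lists in the 3 comparisons (panels). Lists of mitochondrial gene expression had medians from 0.37 to 0.61 in epididymis over SVF, and cytoplasmic ribosomal proteins had medians of -1.09 in testis over SVF and 1.15 in epididymis over testis.

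Genes for the proteins of the cytoplasmic ribosome, which translates the messages of nuclear genes, were low in testis. For 73 genes with Rpl or Rps symbols the median in testis against SVF was -1.09, with 28, or 38.4%, called higher in SVF against 16% of all named genes, and 1 higher in testis, Rpl39l (6.04 ± 0.25). In epididymis against testis their median was 1.15, with 30, or 41.1%, called higher in epididymis against 14.3%. Epididymis over SVF had a median of -0.13 for them, and the sign turned with the array (0.32 and -0.49). The 81 nuclear genes of the respiratory chain and ATP synthase, which function with the products of the mitochondrial ribosome, had medians of 0.26, 0.60 and 0.43 for testis over SVF, epididymis over SVF and epididymis over testis. Of these 81 in epididymis over SVF, 63, or 77.8%, were above 0 on both arrays, beside 72.7% of the mitochondrial ribosomal genes. In testis against SVF they also held extremes, with Cox7b2 (5.35 ± 1.36) and Cox6b2 (3.58 ± 0.58), relatives of widely expressed subunits, at one end and Cox7b (-3.09 ± 0.25) at the other. Transcripts of the mitochondrial genome itself were not analysed here.

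Factors and coactivators known to act on nuclear genes for mitochondrial proteins are 10 in the list used. Of these, 1, or 10%, was called higher in testis than in SVF, against 20.7% of all named genes. Another 3, or 30%, were called higher in SVF, against 16%. With so few genes these are counts only. Gabpa, the DNA-binding part of NRF2, had -1.14 ± 0.10 in testis against SVF, while its partner Gabpb1 had 1.28 ± 0.15, so the 2 were called in opposite directions. Nrf1 had -0.56 ± 0.13, which was not called. The coactivator Pprc1 (-1.88 ± 0.14) and Myc (-4.07 ± 0.08) were called higher in SVF than in testis. Both were also called higher in SVF than in epididymis, 20% of the list against 8.68% of all named genes. The median of the 10 genes was -0.35 in testis against SVF and -0.18 in epididymis against SVF, where the ribosomal genes had 0.52 and 0.53.

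Many of the ribosomal genes start back to back with another gene. Of the 68 with a promoter entry, 25, or 36.8%, had a start on the opposite strand within 1000 bases upstream, against 1513 of 14738 named genes, or 10.3%. One pair joins both subunits. Mrpl46, of the large subunit, and Mrps11, of the small, start 42 bases apart, and all that lies between them is the following stretch (chr7:78783090-78783130, RefSeq on GRCm38.p6, plus strand), in which none of the motifs above was found.
Mrpl46-Mrps11: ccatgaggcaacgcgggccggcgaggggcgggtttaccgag
In testis against SVF, Mrpl46 had 1.05 and 2.00 and Mrps11 had 0.55 and 1.64, so both were above 0 and both were higher on the second array. Over SVF, their epididymal ratios were 1.05 ± 0.37 and 0.42 ± 0.65.

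Most of the other pairs join a ribosomal gene to one of another function. Mrpl47 starts 308 bases from Ndufb5, a subunit of respiratory complex I, and both were called higher in testis than in SVF (4.04 ± 0.32 and 1.54 ± 0.44). Mrps12 starts 147 bases from Sars2, the mitochondrial seryl-tRNA synthetase, at 0.73 ± 0.21 and 0.41 ± 0.24. Mrpl43 starts 116 bases from Twnk, the mitochondrial DNA helicase, with 1.27 ± 0.34 and -0.06 ± 0.29. Mrpl51 and Ncapd2, a condensin subunit, were alike in testis against SVF (1.79 ± 0.23 and 1.80 ± 0.38) but not in epididymis against SVF (1.13 ± 0.14 and -0.47 ± 0.28). Mrps18b and Ppp1r10 had opposite signs in testis against SVF (1.58 ± 0.38 and -1.25 ± 0.38), as were Mrpl27 and Eme1 (-1.36 ± 0.19 and 2.14 ± 1.18). Over the 24 pairs the mean ratios had the same sign in 14, 17 and 15 pairs for testis over SVF, epididymis over SVF and epididymis over testis in turn. Pearson's r across pairs was 0.09, -0.04 and 0.27, and Spearman's rho was 0.09, 0.17 and 0.29. These are descriptions across genes measured on the same arrays, and a weak relation of this kind is no finding.

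**Figure D5:**
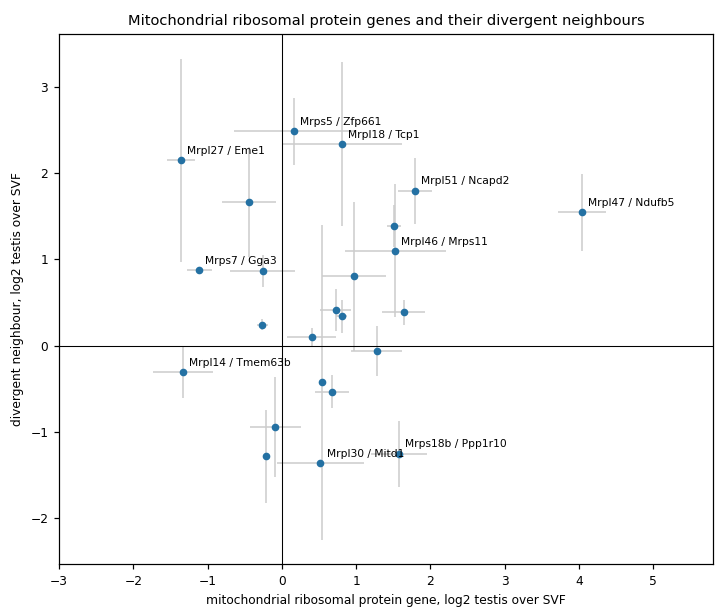
Mean log2 ratio of testis over SVF for the ribosomal gene (horizontal axis) and its divergent neighbour (vertical axis) in 24 pairs, with lines for the SD of both arrays. Points lie on every side of both zero lines, 14 of 24 with the same sign on both axes, and Mrpl47 with Ndufb5 lies farthest to the right.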

How the data were processed

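Total RNA of 3 mouse tissues was compared on 6 two-colour arrays. The authors' deposited table gives a log ratio for each of 25344 probes on every array, read here as log2. Its base, background correction and normalization are not stated in the labels or header. Base and direction (Cy5 over Cy3) are likely rather than stated. Whether a probe was above background is unknown, and the number of arrays limits precision.

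Of the probes, 20456 were named by gene ID and 220 by symbol from the mouse RefSeq table (GRCm38.p6), and 238 kept the annotated name. Another 168 with symbols of non-mouse form and 30 with several genes were left out. A gene's value is the mean over its probes. All 77 ribosomal genes matched RefSeq, and 0 were left out for low values.

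The sign of dye-exchanged arrays was turned. A call needs both arrays past 2-fold with like sign. This rule was also run on simulated data with equal, independent noise for every gene. Those data held no dye bias, so the run cannot show how the rule handles it. The ribosomal genes and the other lists were chosen with earlier results of these data known. All ribosomal genes may be named, with full values for those called, the 5 highest and 5 lowest per comparison and those of the role lists; of other lists, those called and the 2 highest and 2 lowest. Mrpl36, Mrpl48, Mrpl57, Mrpl58, Mrps16, Mrps18a, Mrps18c, Mrps28, Mrps36 and the overlapping or divergent neighbours fall outside this and were chosen after their values were seen. The alternatives were median centring, the loop estimate, other fold limits, single probes, complete genes, natural logarithms, current symbols and each array left out. Python 3.11.15, pandas 2.3.3, numpy 2.4.6 and matplotlib 3.10.9 were used.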

Additional observations from a re-analysis of the deposited data

How the results depend on the processing

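Of the alternative values for the 3 medians and 6 counts, 72 stayed within the spread between arrays or within 1.5 times the count, 18 moved further, and none of the medians for testis or epididymis against SVF changed sign. Part of the 72 carries no information. Complete genes and current symbols left the set of genes, and so every value, unchanged. Medians with 1 array left out were judged by the difference between the same 2 arrays and were nearly bound to stay. Read as natural logarithms, the medians over SVF would be 0.75 for testis and 0.77 for epididymis. The median of epididymis against testis was 0.02 and became -0.02 after median centring, so it has no direction. The count of 5 genes higher in epididymis than in SVF became 14 by the loop estimate, 14 by the mean alone, 25 at 1.5-fold, 1 at 4-fold, 17 as natural logarithms, and 12 to 17 with 1 array left out. The count of 0 higher in SVF than in epididymis became 1 at 1.5-fold, 1 with probes counted singly, and 0 to 1 with 1 array left out. At 4-fold, testis exceeded SVF for 3 genes and SVF exceeded testis for 1, while epididymis exceeded testis for 2 and testis exceeded epididymis for 3. The 7 higher in testis than in epididymis became 14 at 1.5-fold and 9 to 11 with 1 array left out. Shares of all named genes were computed only at 1.5-fold and 2-fold on both arrays and for the sign on both. The counts under the other settings, 4-fold among them, have no background and describe these genes only. Cause beyond the limits themselves was not tested. With 1 RNA sample per tissue and no spot intensities, neither animal spread nor signal over background is known. No paired analysis was possible because each comparison holds 2 arrays of the same RNAs and no test was made.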
